A study of Homo sapiens with 12 samples.

Results

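The regions described here are stretches of messenger RNA whose input reads were at least doubled in METTL1-knockdown THP-1 cells. They were chosen from a table of 9958 peak regions by raw input counts. A region was a member when its reads summed over the 3 knockdown input libraries came to at least 30 and to at least 2 times the sum over the 3 control input libraries. This rule was met by 742 regions, or 7.45% of the table and 20.5% of the 3614 regions with at least 30 knockdown input reads. Input counts chose the members, so every input difference below is a description and carries no test. The immunoprecipitate (IP) libraries were not used by the rule and gave the tested comparison.

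THP-1 is a cell line from a human monocytic leukemia, which phorbol ester turns into adherent cells resembling macrophages. Per the labels, all 12 libraries came from THP-1 cells given PMA at 100 ng/ml for 48 h, and poly(A) RNA was selected on oligo(dT) beads. In the knockdown (KD) libraries METTL1 was targeted by a short hairpin, and NC libraries were the control. Each condition had 3 input (IN) and 3 m7G IP libraries, so the groups were KD IN, NC IN, KD IP and NC IP. The labels do not say whether replicates were separate cultures, so p values measure the spread between these libraries, which may be technical. No region of METTL1 was among those used here, so the targeted transcript was not checked. Reads in peak regions totalled 953727 to 1105477 per KD IN library and 907024 to 1052685 per NC IN library. The IP totals were 1513492 to 1888972 per KD library and 1476384 to 1676625 per NC library. The summed input total of KD was 1.07 times that of NC.

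METTL1 with its partner WDR4 places N7-methylguanosine (m7G) inside RNA, best known in the variable loop of transfer RNAs and also reported in messenger RNA. The cap at the start of every messenger RNA carries m7G as well, so an antibody to it can also collect fragments from transcript starts. An input library is the RNA before immunoprecipitation, and its reads in a region follow how much of that transcript the sample held.

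The markers of cell identity differed between the libraries labelled KD and NC, and these values stand beside every result that follows. A list of 20 pan-leukocyte genes had 8 genes with a region. Their summed input level was 3830 to 4009 CPM (counts scaled to the library's total over peak regions) in KD IN libraries and 1576 to 1718 CPM in NC IN libraries. In IP it was 2727 to 2919 CPM in KD and 1326 to 1456 CPM in NC. A list of 14 genes typical of HEK293, a human embryonic kidney line, had 9 genes with a region and ran the other way. Its summed level was 1251 to 1473 CPM in KD IN libraries and 10928 to 11701 CPM in NC IN libraries. In IP it was 951 to 1153 CPM in KD and 13278 to 14550 CPM in NC.

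NEFM, a neurofilament subunit, had 0, 5 and 0 reads in KD IN libraries and 5209, 4184 and 4937 reads in NC IN libraries. LIN28B, an RNA-binding repressor of let-7 processing, had 0, 0 and 0 reads in KD IN and 44, 84 and 63 reads in NC IN. HOXC8, a homeobox factor of trunk patterning, had 0, 2 and 0 reads in KD IN and 146, 114 and 152 in NC IN. Of the 9 genes, KRT18 and LIN28B were at 0 in all KD IN libraries, and TCEAL9 was the single one abundant in both conditions. TCEAL9 had 952, 1122 and 848 reads in KD IN and 2140, 1769 and 1945 reads in NC IN. The 3 libraries of each group lay close together on both lists, so no single library carries the difference. The 3 epithelial genes with a region were DSP, KRT18 and PPL. They summed to less in KD, with 21.4 to 24.1 CPM in KD IN and 492 to 534 CPM in NC IN. DSP and KRT18 are on the HEK293 list too, so this sum is not a separate observation. The member region of PPL went the other way, with 33 reads in KD IN and 0 in NC IN. No lymphoid or erythroid marker had a region, and of the 20 monocyte and macrophage markers 6 did, with 295 to 381 CPM in KD IN and 211 to 247 CPM in NC IN. In bulk RNA, fewer cells of a type and less RNA per cell cannot be told apart. The lists were chosen with earlier results of these data known, and CDH2, CKB, HOXA9, KRT8 and PAX2 of the HEK293 list had no region. The level of the HEK293 list differed between libraries labelled as the same line, and the identity of the libraries labelled NC was not settled here. Every KD over NC value below is therefore a difference between libraries so labelled, and the part of these marker levels in it was not tested.

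**Figure D1:**
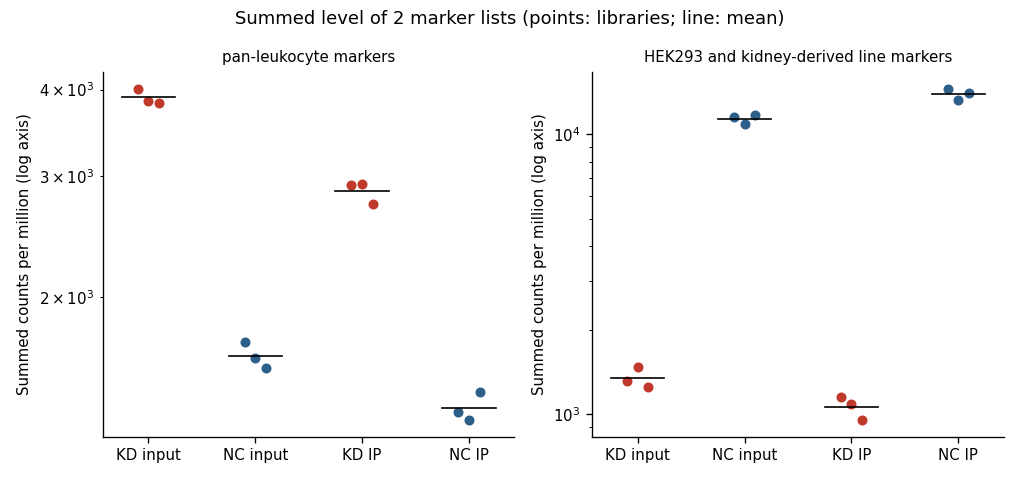
Summed level (CPM over reads in peak regions, log axis) of the pan-leukocyte list and of the HEK293 list, 1 point per library, with a line at the mean of 3. Pan-leukocyte genes sit at 3830 to 4009 CPM in KD input above 1576 to 1718 CPM in NC input, and the HEK293 list lies in the opposite order.

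The 742 members collapsed to 557 clusters of overlapping regions, since the KD and NC peak sets often held the same stretch. Exactly 1 protein-coding gene was overlapped by 692 members, which gave 447 named genes, while 36 members overlapped several coding genes and 12 overlapped none. These 447 genes were 24.3% of the 1841 genes that had any region with at least 30 KD input reads. Where the gene's strand was known, 525 of 531 members lay on it. The counts did not separate strands visibly, so overlapping calls on opposite strands carried nearly the same reads.

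Many members began at or near a transcript start. Of the 525 members with a known start on the same strand, 180 (34.3%) overlapped the window of 250 bases before to 50 bases after a RefSeq start. Among 2154 other regions with at least 30 KD input reads the share was 32.5%. The 5′ end of 54 members (10.3%) lay within 1 base of an annotated start, against 10.2% of the other regions, so the members did not stand apart in this respect.

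The 250 bases before the start are printed for 7 genes whose member region overlaps that start, chosen to show the DNA that leads into the measured RNA. PPT1 and RLF belong to a chromosome 1 run described below, and FERMT3, CD44, CYBA, HBEGF and TNFAIP2 are leukocyte, adhesion, oxidase, growth factor and cytokine genes treated later. Sequences are from RefSeq, build GRCh38.p14, read 5′ to 3′ on the gene's strand. Capitals mark matches, on either strand, to 4 motifs: GAGGAAGT (PU.1), TGANTCA (AP-1), GGGNNTTCC (NF-kB) and TGACNNNGC (antioxidant response element).
PPT1 (chr1:40097253-40097502, minus strand): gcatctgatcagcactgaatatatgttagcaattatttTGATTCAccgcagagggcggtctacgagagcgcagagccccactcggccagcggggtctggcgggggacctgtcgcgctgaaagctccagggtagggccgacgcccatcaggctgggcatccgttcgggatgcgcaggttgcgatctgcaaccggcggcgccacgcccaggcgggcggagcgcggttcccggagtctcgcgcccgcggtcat
RLF (chr1:40161137-40161386, plus strand): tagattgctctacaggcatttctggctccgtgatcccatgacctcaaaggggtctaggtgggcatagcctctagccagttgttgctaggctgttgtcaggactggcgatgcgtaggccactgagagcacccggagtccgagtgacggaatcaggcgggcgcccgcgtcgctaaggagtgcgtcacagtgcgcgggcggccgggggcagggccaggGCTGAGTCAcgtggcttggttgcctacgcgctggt
FERMT3 (chr11:64206471-64206720, plus strand): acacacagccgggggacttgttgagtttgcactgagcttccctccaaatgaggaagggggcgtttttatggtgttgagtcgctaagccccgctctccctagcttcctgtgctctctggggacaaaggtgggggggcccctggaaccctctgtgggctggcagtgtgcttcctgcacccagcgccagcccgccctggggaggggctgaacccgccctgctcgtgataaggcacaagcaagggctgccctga
CD44 (chr11:35138921-35139170, plus strand): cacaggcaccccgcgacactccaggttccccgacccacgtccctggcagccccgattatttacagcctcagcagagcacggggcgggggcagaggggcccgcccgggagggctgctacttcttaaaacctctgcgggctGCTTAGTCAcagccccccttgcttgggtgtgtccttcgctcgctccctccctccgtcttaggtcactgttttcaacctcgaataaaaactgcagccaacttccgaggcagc
HBEGF (chr5:140346604-140346853, minus strand): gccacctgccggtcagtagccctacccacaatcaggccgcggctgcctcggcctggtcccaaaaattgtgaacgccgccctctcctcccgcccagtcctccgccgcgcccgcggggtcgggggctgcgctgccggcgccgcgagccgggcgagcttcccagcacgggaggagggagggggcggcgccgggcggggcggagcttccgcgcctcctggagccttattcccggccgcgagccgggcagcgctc
TNFAIP2 (chr14:103123211-103123460, plus strand): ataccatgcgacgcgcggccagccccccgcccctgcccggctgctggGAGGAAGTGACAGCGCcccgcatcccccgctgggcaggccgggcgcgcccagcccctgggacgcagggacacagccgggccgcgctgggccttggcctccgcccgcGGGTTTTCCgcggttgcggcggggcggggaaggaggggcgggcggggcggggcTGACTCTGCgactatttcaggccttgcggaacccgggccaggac
CYBA (chr16:88651054-88651303, minus strand): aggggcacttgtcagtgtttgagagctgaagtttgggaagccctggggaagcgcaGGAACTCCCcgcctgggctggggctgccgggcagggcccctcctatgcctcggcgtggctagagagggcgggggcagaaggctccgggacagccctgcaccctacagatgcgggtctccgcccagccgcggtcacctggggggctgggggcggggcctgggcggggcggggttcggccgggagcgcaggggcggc

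PPT1 held an AP-1 match and RLF a stretch that matched AP-1 and the antioxidant response element at once, since those letters overlap. CD44 held the antioxidant element, CYBA the NF-kB letters, and TNFAIP2 PU.1, NF-kB and antioxidant matches, the PU.1 and 1 antioxidant match sharing a base. FERMT3 and HBEGF held none in this window. Over 605 windows of 349 member genes, PU.1 letters were present in 2.48%, AP-1 in 5.79%, NF-kB in 7.11% and the antioxidant element in 12.2%. Over all 35116 windows of the reference these shares were 2.17%, 6.57%, 5.78% and 10.9%. A match is only a description of these letters.

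Input differences of the members were mostly moderate. KD input reads ran from 30 to 24693 per member, with a median of 111. Among the 707 members with more than 3 NC input reads, the median ratio of summed raw reads, KD over NC, was 2.54, with quartiles of 2.21 and 3.33. The ratio was under 3 in 473 members (63.7%). All 3 KD IN libraries were above all 3 NC IN libraries in 588 of 742 members. The rule read these same counts, so the separation is no separate support for the members.

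The 12 genes with most KD input reads in a member region were RNA-binding, iron-storage, cytoskeletal and macrophage genes. YBX1, a cold-shock protein that binds messenger RNA, had 7414, 9721 and 7558 reads in KD IN and 4069, 3467 and 3169 in NC IN. FTH1, the ferritin heavy chain that stores iron, had 6092, 6349 and 4765 reads in KD IN and 2536, 2091 and 2302 in NC IN. CAP1, which recycles actin monomers with cofilin, had 5458, 5636 and 4387 reads in KD IN and 2191, 1828 and 2054 in NC IN. In each of these genes the lowest KD library lay above the highest NC library. PABPC4, a cytoplasmic poly(A)-binding protein, had 4016, 4075 and 3324 reads in KD IN and 1811, 1814 and 1688 in NC IN. ZEB2, a zinc finger transcription factor active in macrophages, had 3743, 3731 and 3734 reads in KD IN and 1917, 1435 and 1909 in NC IN. The same separation held for the actin-associated RAI14, the semaphorin and VEGF co-receptor NRP1, the focal adhesion protein TNS3 and LACC1, a purine-metabolising enzyme of macrophages. It held as well for the membrane-anchored protease MMP14, the lipid carrier APOE and the transcriptional repressor ZBTB7A. These genes were chosen on the same input counts, so their separation in input is a description alone. Their summed ratios ran from 2.03 for LACC1 to 2.95 for APOE. APOE had 1278, 1646 and 1596 reads in KD IN and 624, 462 and 448 in NC IN.

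**Figure D2:**
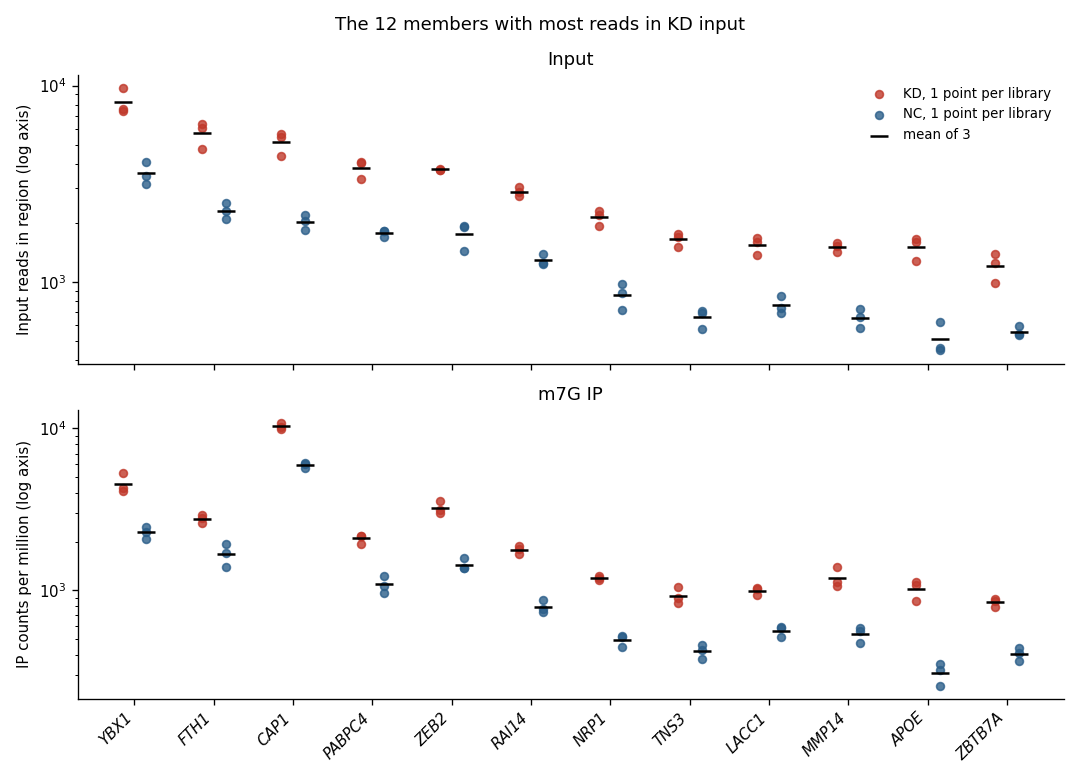
Raw input reads (top, log axis) and IP CPM (bottom, log axis) of the 12 member genes with most KD input reads, 1 point per library with a bar at the mean of 3, KD left of NC. The points of KD and NC do not overlap for any of these genes in either panel, but the top panel shows the counts that chose them. YBX1 had 7414 to 9721 input reads in KD and 3169 to 4069 in NC.

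The same 12 genes were higher in KD IP. Testing KD over NC in the 6 IP libraries with edgeR's quasi-likelihood test, the 12 log2 differences lay between 0.74 (FTH1) and 1.71 (APOE). YBX1 had 4266, 5290 and 4111 CPM in KD IP and 2087, 2309 and 2445 CPM in NC IP, a log2 difference of 1.0 ± 0.12 (SE, edgeR adjusted p = 1.2e-06). APOE had 855, 1120 and 1077 CPM in KD IP and 324, 349 and 258 CPM in NC IP, a log2 difference of 1.71 ± 0.14 (edgeR adjusted p = 7.8e-09). FTH1 averaged 2777 ± 157 CPM in KD IP and 1667 ± 268 CPM in NC IP (SD, n = 3 each), with an edgeR adjusted p of 4.9e-05. NRP1 averaged 1191 ± 39.0 CPM in KD IP and 495 ± 40.5 CPM in NC IP (SD, n = 3 each), with an edgeR adjusted p of 2.4e-08. The IP difference of all 12 was larger than the spread between libraries.

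Over the whole member set, IP moved the same way as input for most but not all regions. Of 742 members, 699 passed the filter on low IP counts. Among these, 502 were higher in KD IP at an edgeR adjusted p under 0.05 (71.8% of those tested and 67.7% of all members), against a background of 24.3% of all 5103 tested regions. Lower in KD IP were 3 members, against a background of 26.0%; without NC IP replicate 2 there were 5. The remaining 194 tested members did not pass the threshold in either direction. The median log2 difference was 0.97 over tested members, with quartiles of 0.55 and 1.29, and 0.00 over all tested regions. Each of the 3 KD IP libraries was above each NC IP library in 508 members (72.7%), against a background of 27.6%.

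A member could pass the filter through its KD IP reads alone. The filter level of 6.27 CPM was reached in every KD IP and every NC IP library by 606 of the tested members, of which 454 were higher and 1 lower. The shares called among all regions that reached the level in every IP library were not counted. These member counts therefore stand without a background, and the 24.3% and 26.0% over all tested regions are not theirs. The share called grew with input depth. Among the 179 members with 30 to 49 KD input reads, 59 (33.0%) were higher in KD IP, with a median log2 difference of 0.61 over those tested, against 8.53% of other regions of that depth. Among 170 members with 50 to 99 reads, 86 (50.6%) were higher, against 16.4% of other regions. Among 151 with 100 to 299 reads, 123 (81.5%) were higher, against 20.2%. Of the 242 members with at least 300 reads, 234 were higher and 0 lower by edgeR (0 lower also at an unadjusted p under 0.05 and 0 by DESeq2), with a median of 1.06 and 10th and 90th percentiles of 0.67 and 1.47. Other regions of that depth numbered 1132, of which 325 were higher and 320 lower, with a median of 0.03.

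**Figure D3:**
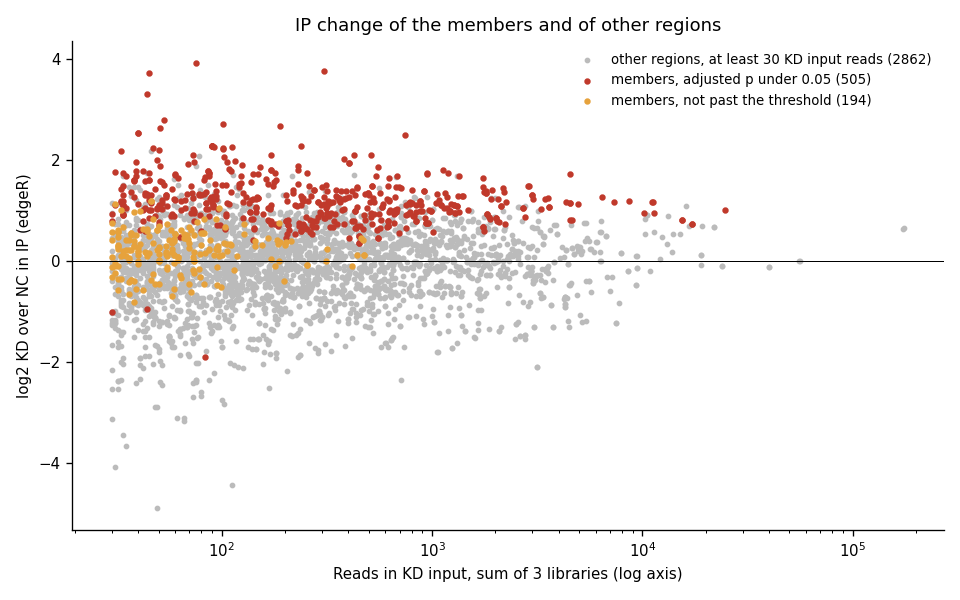
The log2 difference KD over NC in IP (edgeR) against summed KD input reads (log axis), for 505 members past the adjusted threshold, 194 members not past it and 2862 other regions with at least 30 KD input reads. Members lie around their median of 0.97 and scatter more widely below 100 input reads, while the other regions lie around 0.

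The counts of this list and of those after it stand beside 2 shares. Of all genes with at least 30 KD input reads 24.3% were member genes, and of all tested members 71.8% were higher in KD IP. With few genes per list, no list was tested against these shares. The pan-leukocyte list gave 6 members of the 7 genes with at least 30 KD input reads, and all 6 were higher in KD IP with a median log2 difference of 1.13. ARHGDIB, a signalling inhibitor abundant in blood cells, had 964, 1017 and 908 reads in KD IN and 375, 218 and 262 in NC IN. In IP it averaged 611 ± 3.15 CPM in KD and 220 ± 28.0 CPM in NC (SD, n = 3 each; edgeR adjusted p = 1.2e-08). FERMT3 (kindlin-3, which activates integrins on leukocytes), HCLS1 (a cortactin relative), LAPTM5 (a lysosomal membrane protein), LSP1 (an actin-binding protein) and ITGB2 (the shared beta chain of leukocyte integrins) were the other members. The listed gene with enough reads that missed the rule was SPI1, which encodes PU.1, with 232 reads in KD IN and 144 in NC IN, or 1.61 times. RAC2 had 1 read in KD IN and 5 in NC IN.

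Growth factors and their receptors were members in 7 of 8 listed genes with enough reads, and 5 of the 7 were higher in KD IP. TGFB1, a cytokine that restrains inflammation and drives matrix synthesis, had 607, 726 and 604 reads in KD IN and 227, 256 and 186 in NC IN. In IP it averaged 561 ± 17.1 CPM in KD and 212 ± 18.5 CPM in NC (SD, n = 3 each; edgeR adjusted p = 1.5e-08). HBEGF, an EGF receptor ligand, averaged 140 ± 5.51 CPM in KD IP and 58.2 ± 11.9 CPM in NC IP (SD, n = 3 each; edgeR adjusted p = 3.8e-06). PDGFA, a platelet-derived growth factor chain, had 57, 79 and 52 reads in KD IN and 15, 10 and 28 in NC IN. Its IP levels were 47.9, 66.6 and 60 CPM in KD and 7.5, 10.3 and 9.82 CPM in NC, a log2 difference of 2.66 ± 0.26 (SE, edgeR adjusted p = 1.3e-07). CSF1, the ligand that sustains macrophages, went apart from these. It had 52, 93 and 69 reads in KD IN and 16, 9 and 21 in NC IN, but 68.2, 75.7 and 58.1 CPM in KD IP and 50.2, 61.8 and 43.5 CPM in NC IP. Its IP groups overlapped, with a log2 difference of 0.38 ± 0.19 (SE, edgeR adjusted p = 0.11). VEGFA was the listed gene that missed the rule.

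Adhesion, matrix and protease genes were members in 6 of 9 listed genes with enough reads, and all 6 were higher in KD IP, with a median log2 difference of 1.13. MMP9, a secreted gelatinase, had 169, 220 and 181 reads in KD IN and 98, 64 and 58 in NC IN, and averaged 98.6 ± 2.88 CPM in KD IP and 56.7 ± 4.59 CPM in NC IP (SD, n = 3 each; edgeR adjusted p = 0.00036). Another MMP9 cluster, outside the set, had more reads, with 739 in KD IN and 493 in NC IN. Its log2 IP difference was 0.39 (edgeR adjusted p = 0.04), against 0.80 for the member. CD44, the hyaluronan receptor, averaged 132 ± 18.2 CPM in KD IP and 67.1 ± 12.2 CPM in NC IP (SD, n = 3 each; edgeR adjusted p = 8.7e-05). Actin and cell shape genes were members in 6 of 13 such genes, of which 5 were higher. TPM4, a tropomyosin that decorates actin filaments, averaged 92.7 ± 1.83 CPM in KD IP and 38.3 ± 2.27 CPM in NC IP (SD, n = 3 each; edgeR adjusted p = 6e-06). VIM, the intermediate filament protein vimentin, averaged 182 ± 8.77 CPM in KD IP and 95.7 ± 2.12 CPM in NC IP (SD, n = 3 each; edgeR adjusted p = 9.9e-06). CFL1, the filament-severing cofilin, had a log2 IP difference of 0.73 (edgeR adjusted p = 0.012), which was 0.47 without NC IP replicate 1 (adjusted p = 0.072). ACTB, ACTG1, PFN1 and MYH9 were among the listed genes that missed the rule.

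Genes induced early by PMA, with the AP-1 factors, were members in 7 of 15 listed genes with enough reads, and all 7 were higher in KD IP, with a median log2 difference of 1.30. PHLDA1, a pleckstrin-homology protein of immediate early responses, had 1277, 1085 and 638 reads in KD IN and 358, 300 and 367 in NC IN. DUSP2, a nuclear phosphatase of MAP kinases, had 307, 306 and 428 CPM in KD IP and 121, 109 and 69.5 CPM in NC IP, a log2 difference of 1.79 ± 0.18 (SE, edgeR adjusted p = 1.5e-07). JUND, an AP-1 subunit, had 137, 221 and 155 reads in KD IN and 103, 84 and 42 in NC IN. In IP it had 86.2, 132 and 136 CPM in KD and 30, 28.9 and 23.9 CPM in NC, a log2 difference of 2.09 ± 0.21 (SE, edgeR adjusted p = 1.4e-07). PIM1, a survival kinase, had a log2 IP difference of 0.65 (edgeR adjusted p = 0.011), which was 0.54 without NC IP replicate 1 (adjusted p = 0.054). JUN, BTG2 and ZFP36L1 were among the listed genes that missed the rule.

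Of the myeloid transcription factors, 2 of 4 listed genes with enough reads were members. MEF2C, which also acts in muscle and neurons, had 579, 578 and 595 reads in KD IN and 188, 155 and 215 in NC IN. It averaged 422 ± 40.6 CPM in KD IP and 135 ± 35.7 CPM in NC IP (SD, n = 3 each; edgeR adjusted p = 8.1e-08). CEBPB, a leucine zipper factor of macrophage gene programmes, averaged 68.3 ± 22.3 CPM in KD IP and 20.5 ± 6.84 CPM in NC IP (SD, n = 3 each; edgeR adjusted p = 3.7e-05). FLI1 and SPI1 missed the rule.

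Lipid-handling genes were members in 5 of 10 listed genes with enough reads, and 4 of the 5 were higher in KD IP. LPL, the lipase that frees fatty acids from lipoproteins, had 506, 443 and 393 reads in KD IN and 178, 106 and 110 in NC IN. It averaged 556 ± 41.2 CPM in KD IP and 284 ± 32.2 CPM in NC IP (SD, n = 3 each; edgeR adjusted p = 2.2e-06). SQLE, squalene epoxidase of cholesterol synthesis, averaged 469 ± 48.6 CPM in KD IP and 246 ± 29.0 CPM in NC IP (SD, n = 3 each; edgeR adjusted p = 6e-06). ACSL1, a fatty acyl-CoA synthetase, reached an adjusted p of 0.045 in edgeR with a log2 difference of 0.75, and leaving out NC IP replicate 1 gave 0.50 (adjusted p = 0.19). Its adjusted p was also above 0.05 by DESeq2 (0.067), without NC IP replicate 3 (0.15), without KD IP replicate 2 (0.054) and without KD IP replicate 3 (0.11). SCD, FADS1, FADS2, SREBF2 and PLD3 missed the rule.

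Lysosome and phagocyte oxidase genes were members in 6 of 13 listed genes with enough reads. Of the 6, 5 were tested and 3 were higher in KD IP. CTSZ, a cysteine carboxypeptidase of lysosomes, averaged 312 ± 16.9 CPM in KD IP and 132 ± 6.72 CPM in NC IP (SD, n = 3 each; edgeR adjusted p = 1.4e-07). Another CTSZ cluster, outside the set, had 828 reads in KD IN and 422 in NC IN, beside 389 and 181 in the member. Its log2 IP difference was 1.25 (edgeR adjusted p = 2.6e-07). TFEB, the transcription factor that drives lysosome genes, averaged 58.2 ± 8.17 CPM in KD IP and 24.0 ± 4.71 CPM in NC IP (SD, n = 3 each; edgeR adjusted p = 9.9e-05). CYBA, the p22phox subunit of the phagocyte oxidase, had 136, 180 and 131 reads in KD IN and 54, 58 and 68 in NC IN. Its IP levels were 160, 160 and 189 CPM in KD and 143, 142 and 115 CPM in NC, a log2 difference of 0.35 ± 0.14 (SE, edgeR adjusted p = 0.045). That call was lost by DESeq2 (adjusted p = 0.072) and when any IP library except KD IP replicate 1 was left out, with adjusted p values of 0.050 to 0.16. CD68, a glycoprotein of macrophage endosomes, had 13.5, 12.4 and 21.8 CPM in KD IP and 12.7, 14.4 and 11.2 CPM in NC IP, which overlap (edgeR adjusted p = 0.50). Another CD68 cluster, outside the set, had 492 reads in KD IN and 265 in NC IN. Its log2 IP difference was 0.38 (edgeR adjusted p = 0.069).

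Iron and oxidative stress genes gave 3 members of 7 listed genes with enough reads. They were FTH1, MAFF and GCLC, and all 3 were higher in KD IP. MAFF, a small Maf partner of NRF2, averaged 763 ± 70.2 CPM in KD IP and 424 ± 15.5 CPM in NC IP (SD, n = 3 each; edgeR adjusted p = 4.8e-06). GCLC, the catalytic subunit that starts glutathione synthesis, had 5, 23 and 17 reads in KD IN and none in NC IN. Against a floor of 3 reads over the group, its KD input was at least 15-fold higher. In IP it had 19.2, 19.9 and 23.8 CPM in KD and 2.88, 1.37 and 0.00 CPM in NC (edgeR adjusted p = 1.3e-05). Each NC value was below the filter level of 6.27 CPM, so this region was tested through its KD IP reads alone. Its fitted log2 IP difference was 3.73 and became 4.76 without NC IP replicate 1.

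In NF-kB and cytokine signalling, 5 of 7 listed genes with enough reads were members, 4 of the 5 were tested and 2 were higher in KD IP. IL4R, the interleukin-4 receptor chain, averaged 49.5 ± 6.93 CPM in KD IP and 17.4 ± 7.34 CPM in NC IP (SD, n = 3 each; edgeR adjusted p = 0.00020). Another IL4R cluster, outside the set, had 351 reads in KD IN and 178 in NC IN, beside 175 and 50 in the member. Its log2 IP difference was 0.86 (edgeR adjusted p = 0.0024). TRAF1, an adaptor of TNF receptors, had a log2 IP difference of 1.0 (edgeR adjusted p = 0.015), and its adjusted p was 0.051 without KD IP replicate 3 and 0.058 without NC IP replicate 2. STAT6, which transmits the interleukin-4 signal, had 28, 48 and 52 reads in KD IN and 1, 9 and 8 in NC IN. Its IP levels of 15.2, 18.3 and 35.6 CPM in KD and 20.2, 8.25 and 18.2 CPM in NC overlapped (edgeR adjusted p = 0.25).

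Of the interferon list, all 3 listed genes with enough reads, ADAR, IFITM3 and IRF9, were members, and 0 passed edgeR's threshold in IP, with a median log2 difference of 0.32. The count was also 0 at an unadjusted p under 0.05 and 0 by DESeq2. IFITM3, a membrane protein that blocks virus entry, had 47, 43 and 28 reads in KD IN and 18, 18 and 13 in NC IN. Its IP levels were 15.8, 14 and 7.92 CPM in KD and 8.65, 11.7 and 15.4 CPM in NC, with a log2 difference of 0.10 ± 0.38 (SE, edgeR adjusted p = 0.85). IRF9, the DNA-binding part of the interferon-stimulated factor, had 54, 54 and 48 reads in KD IN and 30, 17 and 28 in NC IN, and an IP log2 difference of 0.32 ± 0.21 (SE, edgeR adjusted p = 0.22). ADAR, which edits adenosine in double-stranded RNA, had an IP log2 difference of 0.82 ± 0.48 (SE, edgeR adjusted p = 0.17). These regions hold few IP reads, so the missed threshold does not show that they did not differ.

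Antigen presentation gave 3 members of 3 listed genes with enough reads, and 2 of the 3 were higher in KD IP. The whole list held 24 genes. CD74, the invariant chain of class II molecules, averaged 85.4 ± 14.4 CPM in KD IP and 38.0 ± 4.92 CPM in NC IP (SD, n = 3 each; edgeR adjusted p = 6.3e-05). PSME2, a proteasome activator subunit, had an edgeR adjusted p of 0.044 with a log2 difference of 0.53. That p was above 0.05 when KD IP replicate 2 (0.079), KD IP replicate 3 (0.092), NC IP replicate 2 (0.18) or NC IP replicate 3 (0.14) was left out, and by DESeq2 (0.068). TAPBP, the tapasin of class I peptide loading, had a log2 difference of 0.54 (edgeR adjusted p = 0.12), and 0.75 without KD IP replicate 2 (adjusted p = 0.047).

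In other lists few genes or none were members, beside 24.3% of all genes with enough reads, and with so few genes several of these counts are near that share. None of 9 glycolysis and hypoxia genes with enough reads was a member, GAPDH, ENO1, PKM and TPI1 among them, and none of 5 ribosomal protein genes was. Of 10 genes of endoplasmic reticulum and translation stress 1 was a member, ATF5, and of 8 apoptosis genes 1 was, CFLAR. ATF5, a stress-induced leucine zipper factor, had a log2 IP difference of 0.43 ± 0.33 (SE, edgeR adjusted p = 0.30). CFLAR, an inhibitor of caspase-8 activation, averaged 83.8 ± 6.32 CPM in KD IP and 40.1 ± 10.1 CPM in NC IP (SD, n = 3 each; edgeR adjusted p = 0.00018). Both genes had a larger cluster outside the set. That of ATF5 had 1218 reads in KD IN and 888 in NC IN, beside 69 and 22 in the member. That of CFLAR had 298 reads in KD IN and 202 in NC IN, beside 146 and 48 in the member. Of 6 cell cycle genes CCND1 was a member, with 173, 160 and 168 reads in KD IN and 62, 69 and 62 in NC IN. It averaged 151 ± 32.8 CPM in KD IP and 61.3 ± 2.53 CPM in NC IP (SD, n = 3 each; edgeR adjusted p = 3.5e-06). The chemokine list gave 0 of 1 gene with enough reads.

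Among 6 m7G and RNA modification genes with enough reads, 2 were members. NSUN2, a cytosine methyltransferase of transfer and messenger RNA, had 82, 136 and 100 reads in KD IN and 54, 47 and 47 in NC IN. Its IP levels of 63.1, 92.9 and 104 CPM in KD and 65.7, 74.9 and 81.4 CPM in NC overlapped, with a log2 difference of 0.22 ± 0.19 (SE, edgeR adjusted p = 0.33). YTHDF3, a reader of N6-methyladenosine, averaged 79.1 ± 9.01 CPM in KD IP and 45.7 ± 3.07 CPM in NC IP (SD, n = 3 each; edgeR adjusted p = 0.0012). Sphingolipid signalling gave 2 members of 4 listed genes with enough reads. UGCG, which makes glucosylceramide, had a log2 IP difference of 0.24 ± 0.36 (SE, edgeR adjusted p = 0.61), and SPHK1 is described below.

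The largest input ratios belonged to regions with few NC reads. NC IN held 3 or fewer reads in 35 members and none in 14, and all 35 were peaks of the NC set. Of the 242 members with at least 300 KD input reads, 116 were peaks of the NC set. FMNL1, a formin that elongates actin filaments in blood cells, had 8, 59 and 57 reads in KD IN and 5, 0 and 0 in NC IN, or 24.8 times in sum. LRP12, a low-density lipoprotein receptor relative, had 22, 45 and 33 reads in KD IN and 1, 0 and 3 in NC IN, or 25 times. ATP2B1, a calcium pump of the plasma membrane, had 27, 33 and 6 reads in KD IN and none in NC IN, at least 22-fold higher against a floor of 3 reads over the group. SPHK1, which makes sphingosine-1-phosphate, had 13, 35 and 11 reads in KD IN and none in NC IN, at least 19.7-fold higher against the same floor. These ratios belong to single regions and not to whole genes: another SPHK1 cluster had 65 reads in KD IN and 36 in NC IN.

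For NC sums of 1 to 3 reads only wide counting intervals can be given. HIPK1, a homeodomain-interacting kinase, had 46 reads in KD IN and 1 in NC IN, a ratio of 46.0 with an exact 95% binomial interval of 7.85 to 1860. KLHL6, a ubiquitin ligase adaptor, had 45 and 1, a ratio of 45 (7.68 to 1820). RCAN1, a calcineurin regulator, had 60 reads in KD IN and 2 in NC IN, a ratio of 30 (7.95 to 253). For RGS3, a regulator of G-protein signalling, the ratio was 27.5 (7.26 to 233), and for TNFAIP2, a TNF-induced protein, 23.5 (6.15 to 200). GPAT4, a glycerolipid synthesis enzyme, had a ratio of 21.5 (5.60 to 183), and NOTCH1, the receptor of Delta and Jagged ligands, 15.7 (5.04 to 78.7). These intervals and floors allow for counting error alone, because without molecular identifiers several reads can stem from 1 molecule. They pool the 3 libraries of each group and leave out the spread between them. The same counts chose these regions, so intervals that lie above 1 are no test of a difference. Other clusters of the same genes differed less, with 23 reads in KD IN and 18 in NC IN for HIPK1 and 113 and 67 for GPAT4.

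These regions were also thin in IP, and 6 of the 12 genes with the highest ratios (ATP2B1, RGS3, TNFAIP2, HIPK1, KLHL6 and GPAT4) did not pass the IP filter. HIPK1 had 20 reads over the KD IP libraries and 14 over the NC IP libraries. ATP2B1 had 18 in KD IP and 10 in NC IP. LRP12 was higher in KD IP, with 18.6, 34.9 and 19.8 CPM in KD and 4.04, 8.25 and 14 CPM in NC (edgeR adjusted p = 0.0043). LRP12, FMNL1, NOTCH1, RCAN1 and SPHK1 were each below the filter level of 6.27 CPM in at least 1 NC IP library. Each of them passed the filter only with its KD IP reads. KD IP replicate 2 decided the IP calls of FMNL1 and NOTCH1. FMNL1 had 7.89, 31.7 and 9.24 CPM in KD IP and 2.88, 4.12 and 6.32 CPM in NC IP, with a log2 difference of 1.9 (edgeR adjusted p = 0.0076) that became 0.97 (adjusted p = 0.21) without that library. NOTCH1 had 9.58, 43.5 and 11.2 CPM in KD IP and 4.04, 6.87 and 2.81 CPM in NC IP, with a log2 difference of 2.23 (edgeR adjusted p = 0.0027) that became 1.19 (adjusted p = 0.10) without it. RCAN1 and SPHK1 each had an edgeR adjusted p of 0.040. For RCAN1 it was 0.14 without NC IP replicate 2 and 0.20 without NC IP replicate 3. For SPHK1 it was 0.079 without KD IP replicate 2, 0.23 without KD IP replicate 3, 0.15 without NC IP replicate 2 and 0.090 without NC IP replicate 3. DESeq2 gave SPHK1 an adjusted p of 0.061.

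By IP difference, ranking for each gene only the member region with most KD input reads, the first of the 12 highest was AP1S2, a small subunit of the clathrin adaptor AP-1. It had 73.2, 128 and 81.1 CPM in KD IP and 9.80, 3.44 and 7.02 CPM in NC IP, a log2 difference of 3.76 ± 0.31 (SE, edgeR adjusted p = 1.5e-08). Its input was less regular, with 39, 165 and 103 reads in KD IN and 86, 13 and 1 in NC IN, so the input groups overlapped. After GCLC and PDGFA came NREP, a neuronal regeneration protein, with 105, 189 and 111 CPM in KD IP and 16.1, 30.9 and 26 CPM in NC IP (log2 difference 2.49 ± 0.25, edgeR adjusted p = 1.8e-07). FAM89B, CMYA5 (a muscle scaffold protein), COL5A3 (a fibrillar collagen chain), NOTCH1, PRDM1 (the repressor Blimp-1), PPL (a desmosomal plakin), FBH1 (a DNA helicase) and NTSR1 (the neurotensin receptor) had log2 differences of 2.09 to 2.28. FBH1 had 6, 40 and 27 reads in KD IN and 30, 2 and 2 in NC IN, which overlap, and its log2 IP difference of 2.10 became 2.69 without NC IP replicate 1. PPL is on the epithelial marker list that was lower in KD in sum. This region had 10, 13 and 10 reads in KD IN and none in NC IN, and averaged 8.20 ± 1.60 CPM in KD IP and 1.78 ± 0.898 CPM in NC IP (SD, n = 3 each; edgeR adjusted p = 0.0035). Like GCLC, it was below the filter level in every NC IP library and was tested through its KD IP reads alone. AP1S2, CMYA5, COL5A3, NOTCH1, PRDM1 and FBH1 were below that level in at least 1 NC IP library. They too passed the filter only with their KD IP reads, so their place in this ranking carries that selection.

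The 3 members lower in KD IP went against their input. TRAPPC2L, a subunit of a vesicle-tethering complex, had 31, 28 and 24 reads in KD IN and 11, 13 and 11 in NC IN. Its IP levels were 5.63, 2.15 and 3.30 CPM in KD and 19.6, 15.1 and 7.02 CPM in NC, a log2 difference of -1.91 ± 0.50 (SE, edgeR adjusted p = 0.0036). HDAC6, a cytoplasmic deacetylase of tubulin, had 10, 16 and 18 reads in KD IN and 6, 12 and 4 in NC IN. Its IP levels were 20.3, 23.6 and 24.4 CPM in KD and 51.3, 38.5 and 42.8 CPM in NC, a log2 difference of -0.96 ± 0.23 (SE, edgeR adjusted p = 0.0018). FASTK, a mitochondrial RNA-binding protein, had a log2 difference of -1.01 (edgeR adjusted p = 0.039). Leaving out KD IP replicate 2, NC IP replicate 1 or NC IP replicate 3 raised its adjusted p to 0.15, 0.14 and 0.16, and DESeq2 gave 0.066.

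The members were spread over the genome unevenly, and the clearest concentration was on chromosome 1. Of the 2425 clusters with at least 30 KD input reads, 23% were members. By chromosome the share was 41.6% of 89 clusters on chromosome 8, 37.8% of 37 on chromosome 13 and 31.2% of 160 on chromosome 11. It was 11% of 173 on chromosome 17, 10.8% of 83 on chromosome X and 0 of 16 on the mitochondrial chromosome. Of the tested regions with at least 30 KD input reads, 48.3% were higher in KD IP on chromosome 8 and 15% on chromosome X. On chromosomes 1 and 19, which held the most such regions, 30% and 31.8% were higher. The 24.3% over all tested regions also covers regions with fewer KD input reads, so it is no background for these shares. Share of members and share higher did not always go together: chromosome 18 had 60.6% higher in KD IP with 20% of clusters members, and chromosome 15 had 39.6% with 23%. In windows of 2 Mb with at least 6 clusters, 1 of 130 windows held members alone. It was chr1:40000001-42000000, with 9 of 9 clusters, and the next highest windows held 66.7%.

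That window lay inside an unbroken run of 14 consecutive member clusters, chr1:39568891-42460004 (2.89 Mb, GRCh38), singled out after its values were seen. The next longest runs had 5 clusters. In order, the run covered PABPC4, MFSD2A (a lysophospholipid transporter), CAP1, PPT1 (a lysosomal thioesterase), RLF (a zinc finger protein), ZMPSTE24 (the prelamin A protease), COL9A2 (a cartilage collagen chain) and SMAP2 (a GTPase activator of Arf). It went on through RIMS3 (a synaptic exocytosis protein), CITED4 (a coactivator), HIVEP3 (a zinc finger factor), FOXJ3 (a forkhead factor) and a region in both PPCS and CCDC30. All 21 regions of the run with at least 30 KD input reads were members. The 17 thinner regions summed to 126 reads in KD IN and 66 in NC IN.

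Input ratios in the run were close to each other where counts were high: 2.15 for PABPC4, 2.55 for CAP1, 2.79 for PPT1, 2.80 for RLF, 2.43 for ZMPSTE24 and 2.31 for FOXJ3. In IP, 17 of the 19 tested regions of the run were higher in KD and 0 lower by edgeR, 0 also at an unadjusted p under 0.05 and 0 by DESeq2, with a median log2 difference of 0.86. Over all tested members 71.8% were higher, with a median of 0.97, and over all tested regions 24.3% were higher and 26.0% lower. On chromosome 1, 30% of tested regions with at least 30 KD input reads were higher. That 30% is not to be set against the 24.3%, which also covers regions with fewer KD input reads. The run is made of member clusters, so its count is to be read beside that of the members. PPT1 had a log2 IP difference of 0.86 ± 0.14 (SE, edgeR adjusted p = 3.4e-05), and RLF 1.38 ± 0.14 (SE, edgeR adjusted p = 1.9e-07). The lowest log2 IP difference among the tested regions of the run, -0.62, was in a region with under 30 KD input reads, which is no member, and it did not pass the threshold. Among the members COL9A2 and RIMS3 did not follow in IP. COL9A2 had 43 reads in KD IN and 12 in NC IN, but 20 in KD IP and 32 in NC IP. RIMS3 had 46 reads in KD IN and 4 in NC IN, but 10 in KD IP and 12 in NC IP. Both were too thin to be tested. Before the run, SF3A3 (a splicing factor) had 516 reads in KD IN and 810 in NC IN, and GNL2 had 1288 and 1651. After it, a second PPCS and CCDC30 region had 1.83 times, YBX1 was again a member, and P3H1 had 1.62 times. Neighbouring genes in the same libraries are not independent observations, and what sets the run apart was not tested.

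**Figure D4:**
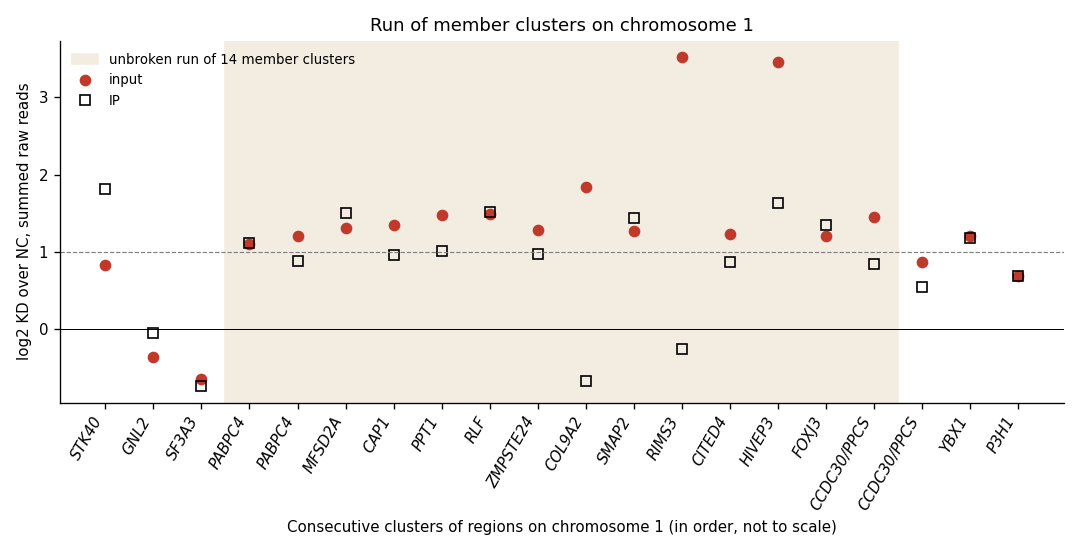
The log2 ratio of summed raw reads, KD over NC, for consecutive clusters of regions on chromosome 1 with at least 30 KD input reads, in genome order and not to scale, with filled circles for input and open squares for IP. NC input sums under 3 were set to the floor of 3, which makes HIVEP3 a lower bound. All 14 shaded clusters are at or above a doubling in input (dashed line), and IP is below 0 for COL9A2 and RIMS3 alone among them.

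Within genes, the members lay at both ends. Of the 692 members in 1 coding gene, 45.1% were in the first of 10 equal parts of the gene body and 24.0% in the last, against 38.0% and 20% of 2647 other regions with at least 30 KD input reads. The parts between held 30.9% of members and 42.0% of the others. Median length was 212 bases for members and 249 for the others. The IP difference was like at each place, with a median log2 of 0.91 in the first part, 1.05 in the middle and 1.01 in the last part. Gene bodies include introns, and the reference used here gives no exons, so coding sequence and untranslated parts were not separated.

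**Figure D5:**
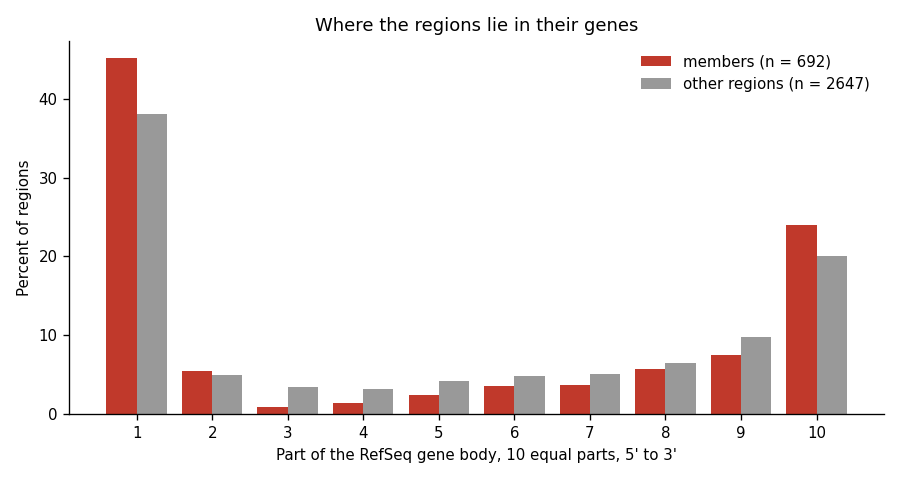
Percent of regions in each of 10 equal parts of the RefSeq gene body, 5′ to 3′, for 692 members (left bars) and 2647 other regions with at least 30 KD input reads (right bars). Both sets peak in the first and last parts, with 45.1% and 24.0% of members against 38.0% and 20% of the others.

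A gene could hold a member beside regions that did not meet the rule. Of 134 member genes with more than 1 measured cluster, every cluster was a member in 48 and some were not in 86. The genes in this paragraph were picked after their values were seen. All 4 clusters of POU2F2 (a lymphoid and myeloid octamer factor) were members, as were all 4 of MAF, a large Maf factor of macrophages. In COX20, an assembly factor of cytochrome oxidase, the member had 342 reads in KD IN and 144 in NC IN, while another cluster had 601 in KD IN and 1551 in NC IN. That other cluster was lower in KD IP (log2 difference -1.63, edgeR adjusted p = 6.9e-09), and the member was higher (log2 difference 0.79, edgeR adjusted p = 0.0014). In GNAS, the stimulatory G-protein subunit, a cluster outside the set had 2317 reads in KD IN and 3005 in NC IN. In ITGB2 a second cluster had 621 reads in KD IN and 391 in NC IN, and a log2 IP difference of 0.10 (edgeR adjusted p = 0.59), against 1.11 for the member (edgeR adjusted p = 1.2e-05). For FLT1, a VEGF receptor, the 2 member clusters had log2 IP differences of 3.31 (edgeR adjusted p = 5.4e-06) and 0.42 (edgeR adjusted p = 0.36).

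At the edges of the rule, members and others were alike in counts. Just inside the ratio were FRMD4B with 360 reads in KD IN and 180 in NC IN, DDX39A with 198 and 99, and MTMR14 with 144 and 72. Just outside were a GNAS region with 1310 in KD IN and 656 in NC IN, CYBB with 1009 and 506, and an IL4R region with 309 and 155. CYBB is the catalytic subunit that pairs with CYBA, and its IP reads summed to 1778 in KD and 793 in NC. At the minimum of 30 reads, GAB3 (30 in KD IN, 0 in NC IN), CALCOCO1 (30 and 2) and NACC2 (30 and 6) were just inside. AREL1 (29 in KD IN, 0 in NC IN), a second LACC1 region (29 and 3) and TNK2 (29 and 4) were just outside.

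The enrichment of the members, IP over input, also reads the input counts that chose them, and is given without a test. Over the 707 members with more than 3 NC input reads, the median log2 of IP over input, on library-scaled sums, was 0.04 in KD and 0.59 in NC. It was lower in KD than in NC for 554 of them. For 2872 other regions the medians were 0.01 in KD and 0.03 in NC. In the authors' deposited table, 33 members passed an adjusted p of 0.05 for a change in enrichment, 3 with a log2 change above 0 and 30 below 0. Over all regions the authors' deposited table called 78, with 35 above 0 and 43 below 0. The 3 above 0 in the authors' deposited table were AP1S2 (2.20), JUND (1.03) and GNAS (0.73). Among those below 0 in the authors' deposited table were both CSF1 regions (-1.74 and -1.75), both FTH1 regions (-0.46), STAT6 (-2.12) and TRAPPC2L (-3.06). The authors' deposited peak enrichment had a median of 4.29 over members and 3.02 over the other regions with at least 30 KD input reads.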

How the data were processed

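The table held raw counts of reads per peak region and library, deposited by the authors without normalization. The submitters' processing notes name fastp 0.23.4 and the build GRCh38. Which aligner, peak caller and counter were used is not given in the sources used here. The authors also deposited, per peak, a fold enrichment ratio, a score equal to it, p-values and a log2 change. These served as descriptions only. IN was read as input. The 12 libraries of samples grouped by name gave the 4 groups of 3.

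Regions were named by overlap of at least 1 base with RefSeq gene bodies (GRCh38.p14); genes on chromosome Y were not named. KD over NC in the 6 IP libraries was tested two-sided with edgeR 4.0.16 (R 4.3.3): filterByExpr (minimum count 10, minimum total 15), TMM, quasi-likelihood F test, Benjamini-Hochberg over all 5103 regions, threshold 0.05. CPM in IP used TMM-scaled totals. The test was tested on simulated data. Alternatives included DESeq2 1.42.0. Totals count peak regions only and are not sequencing depth.

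The members and the 26 gene lists were chosen with earlier results of these data known. Named were the 12 genes with most KD input reads, the 12 with the highest input ratio, the 12 highest and up to 8 lowest by IP difference past the threshold, the 3 on each side of each rule threshold, and up to 4 per list, 1 region per gene. For a member gene that region was its member with most KD input reads. Same-numbered KD and NC IP libraries did not deviate together (r of -0.084 to 0.049), so numbers were not treated as pairs.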

Additional observations from a re-analysis of the deposited data

Results flagged for a closer look

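TRIP12, a ubiquitin ligase, was picked out because every KD input library was above every NC input library while every KD IP library was below every NC IP library. It had 34, 40 and 25 reads in KD IN and 14, 15 and 10 in NC IN. In IP it had 33.2, 31.7 and 33.6 CPM in KD and 42.1, 57.7 and 42.1 CPM in NC, a log2 difference of -0.52 ± 0.21 (SE, edgeR adjusted p = 0.050). Input chose the region, so the difference between input and IP was not tested.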

How the results depend on the processing

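Members higher in KD IP numbered 502 of 699 tested, and 446 to 506 under library size scaling, DESeq2, other filters or a fit of all 12 libraries. With the replicate block they numbered 492 and the median log2 IP difference was 0.98; the block changed no count of calls by over 1.5 times. Leaving out 1 IP library gave 471 to 488 members higher and medians of 0.94 to 1.0, against 0.97 with all libraries. Members lower in KD IP numbered 3, 2 to 5 with 1 IP library left out, and 0 among members at 3 times or more. Since the KD and NC sets often hold the same stretch, 1 region per cluster was also counted: 345 of 514 tested were higher, with a median of 0.93. Members chosen at 3 times or more were fewer, so that 160 of 232 tested were higher, with a median of 1.17; a library-size scaled ratio of at least 2 gave 415 of 573 higher with a median of 1.04. The rule was met by 742 regions, by 1393 at 1.5 times and 269 at 3 times, and by 667 to 881 when 1 input library was left out. Of the 63 named genes called in IP, 11 lost the call under at least 1 alternative. Among the named genes not called, 1, TAPBP, gained a call. DESeq2 gave adjusted p values of 0.072 for CYBA, 0.067 for ACSL1, 0.068 for PSME2, 0.050 for RCAN1, 0.061 for SPHK1 and 0.066 for FASTK. With the replicate block, which rests on numbers that did not pair the libraries, the edgeR adjusted p was 0.072 for CYBA, 0.050 for PSME2, 0.071 for RCAN1 and 0.066 for SPHK1, each above the threshold. With all 12 libraries fitted it was 0.084 for TRAF1, 0.11 for PSME2, 0.067 for RCAN1, 0.10 for SPHK1, 0.16 for FASTK and 0.050 for CYBA. No named gene changed direction past the threshold. Thin input and IP counts limit what can be seen in members under 100 KD input reads.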
